A study of Mus musculus with 2 samples.

Results

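Growth hormone (GH) and insulin-like growth factor 1 (IGF1) axis genes were examined in primary hepatocytes of control mice and of mice with a liver deletion of *Drp1*, the gene of the dynamin-related protein that divides mitochondria. The members were the 10 genes *Igf1*, *Ghr*, *Stat5b*, *Socs2*, *Socs3*, *Igfals*, *Igfbp1*, *Igfbp2*, *Igfbp3* and *Igfbp4*, chosen by gene name from the 37074 gene names of the array, with all of their 21 probes. RNA came from 1 control and 1 *Drp1*LiKO culture, both on the C57BL/6 background. *Drp1*LiKO mice carry *Drp1*flox/flox and an Alb-Cre transgene, whose albumin promoter drives Cre in hepatocytes, so that other liver cells keep the gene. The control is labeled wild type, and in the study's methods controls are *Drp1*flox/flox littermates without Cre. The labels give neither the sex nor the age of the animals behind these cultures. Cells of both genotypes were obtained by collagenase perfusion and a low-speed spin, seeded on collagen type I in a high-glucose medium (4500 mg/L) with 1 µM insulin and 10% fetal bovine serum, and harvested 24 h after seeding. Insulin, serum and culture were thus shared by both groups, and no GH or lipopolysaccharide treatment is named in the labels of these cultures.

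GH from the pituitary binds the GH receptor on hepatocytes, which activates the kinase JAK2 and the transcription factors STAT5A and STAT5B. STAT5B then switches on *Igf1*, the liver's main endocrine growth signal, together with *Igfals* and the feedback inhibitors *Socs2* and *Cish*. In blood, IGF1 travels mostly in a complex with IGFBP3 and the acid-labile subunit encoded by *Igfals*, while smaller binding proteins such as IGFBP1, whose gene is repressed by insulin, hold and release the rest.

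Each genotype had a single array and no replicate. No test could therefore be made, and each difference describes these 2 arrays. Values are processed signals, a linear fluorescence intensity of each array before scaling, and log2 ratios of *Drp1*LiKO minus control after each array was scaled to its 75th percentile, a signal of 313 on the control and 356 on the *Drp1*LiKO array. A probe with equal signals on both arrays therefore has a log2 ratio of -0.18, and signals of single genes were compared only within a probe. Summed signals of cell type markers, given further below, add different probes, so the brightest weigh most. Those sums are not scaled for the higher 75th percentile of the *Drp1*LiKO array. The error given after ± is the noise expected between single spots at that signal (1 SD, from probes printed 10 times), which holds no variation between cultures or animals. The larger error that the scanner software assigns to a ratio ran from 0.204 to 0.206 on the log2 scale for the brightest probes of the members. As a check of the labels, *Dnm1l*, the gene of DRP1, had signals of 2602 on the control and 1217 on the *Drp1*LiKO array at its brightest probe, a log2 ratio of -1.28 ± 0.11. Its Z score, defined below, was -1.95, short of the threshold of 2. The other *Dnm1l* probe, with low signals of 22.8 and 20.9, had a log2 ratio of -0.31 ± 0.48, within its noise. Whether either probe lies in the deleted exons is not given in the sources used here.

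*Igf1* and *Socs2* were lower in *Drp1*LiKO hepatocytes, and they had the lowest ratios among the members. *Igf1* was 1.87-fold lower and *Socs2* 1.67-fold lower by their brightest probes. All 6 of their 6 detected probes gave a ratio below 0, as did 53.6% of all detected probes. Of these 6, 1 *Socs2* probe was well above background on the control array only. Its dim signal on the other array was raised to the lowest signal well above background, which left no other sign possible. No member reached a Z score of 2 in either direction, which 3.50% of the 20165 genes tested did as higher and 2.81% as lower (6.30% in all). That score is a log2 ratio's distance from the mean of all detected probes in units of their SD of 0.65, and a score of 2 lay at a log2 ratio of 1.30 for higher and -1.31 for lower genes. By a difference of at least 1.5-fold, 2 of 10 members (*Igf1* and *Socs2*) were lower and 0 were higher, against 10.3% of all genes in each direction (20.6% in all). At 2-fold, 0 members were called, against 5.32% of all genes as higher and 4.59% as lower (9.91% in all). Of the 10 members, 5 had a ratio above 0 and 5 below 0, against 44.5% and 55.5% of all genes. Their median log2 ratio was 0.08 (all genes, -0.05), and their median absolute log2 ratio was 0.38 (all genes, 0.24). The ratio exceeded 2 times the spot noise for 7 members and 2 times the software's error for 3, namely *Igf1*, *Socs2* and *Igfbp1*. The share of all genes past these limits was not computed, so the counts show nothing particular to the members. Spot noise also holds no variation between cultures.

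**Figure D1:**
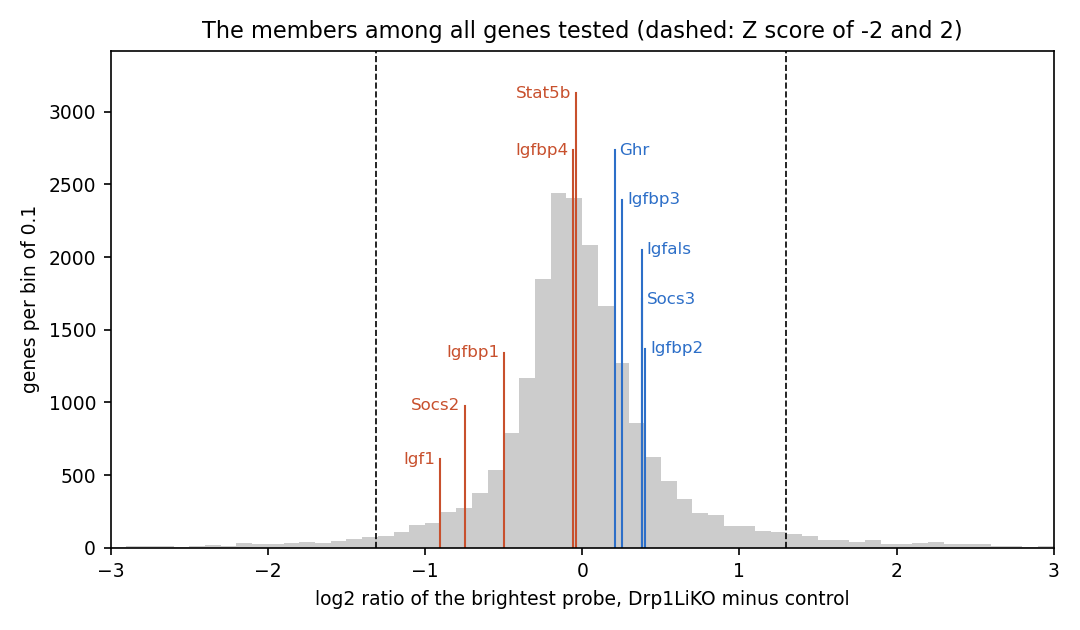
Log2 ratio (*Drp1*LiKO minus control, x axis) of the brightest probe of each of the 20165 genes tested, as genes per bin of 0.1 (y axis, gray bars), with the 10 members as colored lines (orange below 0, blue above 0) whose heights only separate the labels, and Z scores of -2 and 2 as dashed lines. All members lie between the dashed lines, and *Igf1* at -0.91 and *Socs2* at -0.74 stand lowest.

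Of the 21 probes, 18 were well above background on at least 1 array, 17 of them on both. The other 3, of *Igfbp3*, *Socs2* and *Stat5b*, were not well above background on either array and give no ratio. All 10 members had at least 1 probe measured on both arrays, and 4 members had a single probe on the array. The sequences of a few probes show what was read. The *Socs2* probe is shown as that gene's second reading, the *Igfbp2* probe as that of the highest ratio, and the *Ghr* probe because its bases come from separate places in the genome. Positions are those of the files, in mm9, and the exons they fall in were not analysed here.
*Socs2*, chr10:94875468-94875527, minus strand: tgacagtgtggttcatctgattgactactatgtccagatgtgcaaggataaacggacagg
*Igfbp2*, chr1:72898677-72898736, plus strand: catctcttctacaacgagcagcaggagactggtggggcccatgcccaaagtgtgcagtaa
*Ghr*, chr15:3283509-3290961, minus strand: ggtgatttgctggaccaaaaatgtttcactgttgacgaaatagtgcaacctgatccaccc

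**Figure D2:**
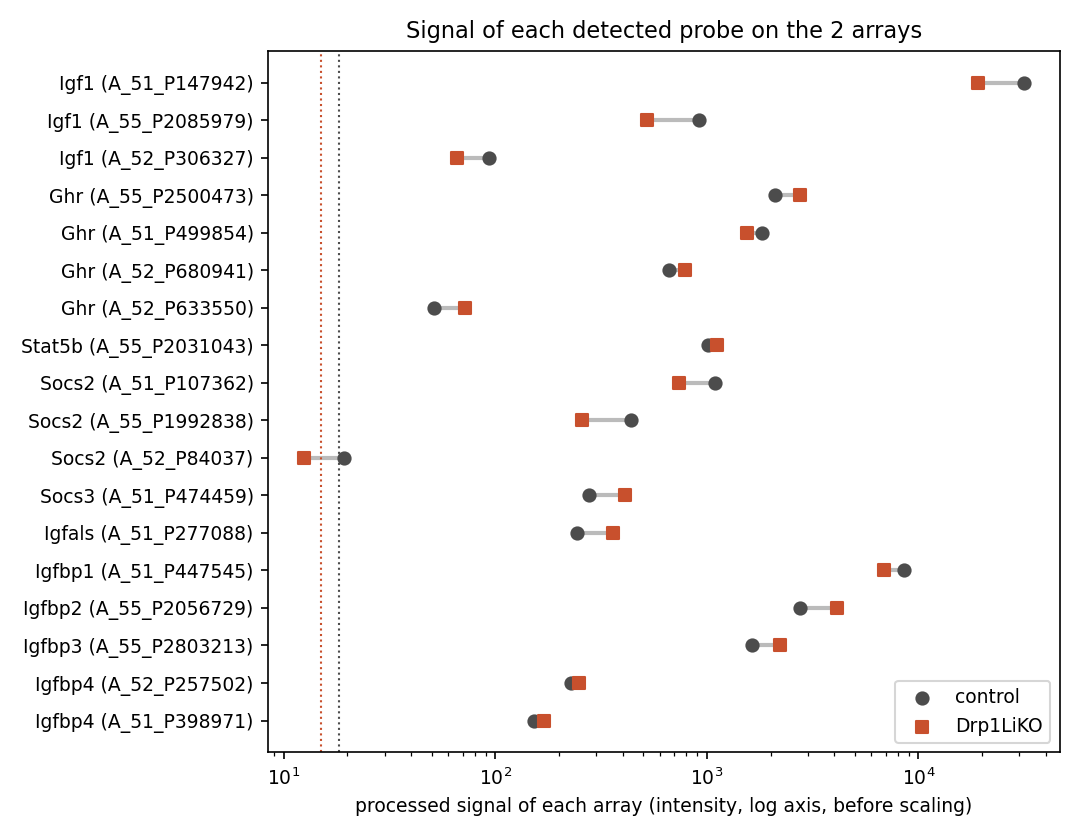
Processed signal before scaling (intensity, log x axis) of the 18 detected probes of the members on the control array (gray circles) and the *Drp1*LiKO array (orange squares), with the lowest signal well above background on each array (18.2 in control, 15.0 in *Drp1*LiKO) as dotted lines. The 3 probes of *Igf1* and the 3 of *Socs2* lie to the left on the *Drp1*LiKO array, and signals of different probes are not comparable.

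The ligand *Igf1* was read by 3 probes. The brightest, made for transcript variant 1 and placed at chr10:87393516-87393575, had a signal of 31493 on the control and 19080 on the *Drp1*LiKO array. Its log2 ratio was -0.91 ± 0.07, with a Z score of -1.38, and 5.40% of all genes had a lower ratio. The probe for transcript variant 2 lay on the same side, with signals of 919 and 522 and a log2 ratio of -0.999 ± 0.16. The remaining probe, taken from a liver tumor cDNA, had signals of 93.6 and 66.3 and a log2 ratio of -0.68 ± 0.37. The control array was thus brighter at every *Igf1* probe, over a wide range of signals. Under 9 alternatives in processing, the log2 ratio of the brightest probe stayed between -0.91 and -0.86.

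The receptor gene *Ghr* gave ratios of opposite sign at the probes named for its main transcripts. Mouse *Ghr* makes, by alternative splicing, the membrane receptor (transcript variant 1) and a shorter form, the soluble GH binding protein (transcript variant 2). The probe named for variant 1, at chr15:3268107-3268166, had a signal of 1816 on the control and 1552 on the *Drp1*LiKO array, which gave a log2 ratio of -0.41 ± 0.11. The brightest probe, named for variant 2 and placed at chr15:3277543-3277602, had signals of 2111 and 2762 and a log2 ratio of 0.21 ± 0.11. The ratio of the membrane form's probe was thus lower than that of the soluble form's by 0.62 (-0.62 ± 0.16), a difference that does not depend on how the arrays are scaled against each other. In the authors' normalized values this difference was -0.32, with 0.12 for the probe of the soluble form. Of the remaining probes, the one whose sequence is shown above had signals of 662 and 793 and a log2 ratio of 0.08 ± 0.17. It carries the name of variant 2, but its bases lie upstream of both other positions, so whether it reads one form or both was not determined. The last probe, of an Ensembl transcript, had signals of 51.2 and 72.0 and a log2 ratio of 0.31 ± 0.40, within its noise.

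*Stat5b*, which carries the signal of the receptor to the nucleus, differed little. Its brightest probe had a signal of 1010 on the control and 1113 on the *Drp1*LiKO array, which gave a log2 ratio of -0.04 ± 0.15, smaller than the spot noise. Its other probe had signals of 3.85 and 3.15, not well above background on either array.

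The inhibitors *Socs2* and *Socs3* lay on opposite sides of 0. *Socs2*, a direct target of STAT5B that binds the GH receptor and dampens its signal, had a signal of 1090 on the control and 739 on the *Drp1*LiKO array at its brightest probe (chr10:94875066-94875125). The log2 ratio was -0.74 ± 0.16, with a Z score of -1.13, and 7.29% of all genes had a lower ratio. The *Socs2* probe shown above had signals of 439 and 257 and a log2 ratio of -0.95 ± 0.18. Another probe was well above background on the control array only, with signals of 19.3 and 12.5, and was at least 1.46-fold lower in *Drp1*LiKO cells. The *Socs2* readings measured on both arrays were thus lower in *Drp1*LiKO cells, whereas this bound could take no other sign. The last *Socs2* probe was not well above background on either array. *Socs3*, an inhibitor induced by interleukin-6 and STAT3 as well as by GH, had signals of 277 and 409 at its single probe, a log2 ratio of 0.38 ± 0.18. In the authors' normalized values its log2 ratio was -0.02, so the direction of *Socs3* depends on the source of the values.

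**Figure D3:**
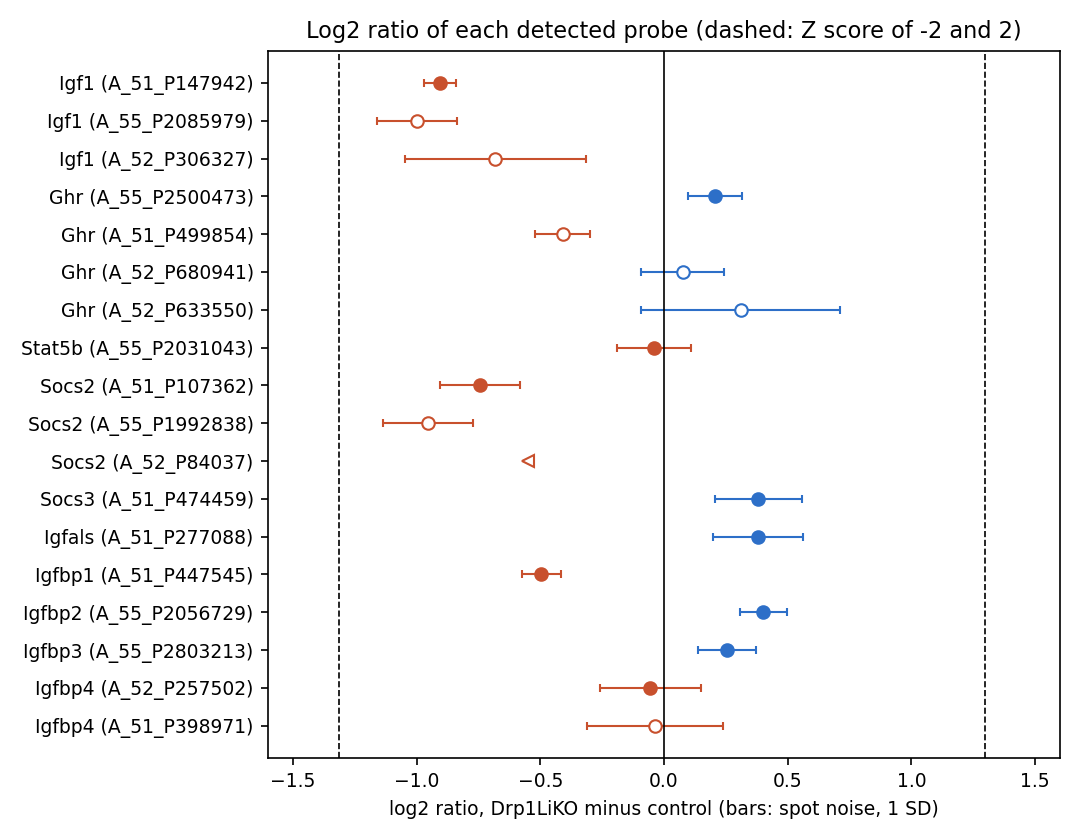
Log2 ratio (*Drp1*LiKO minus control, x axis) of each of the 18 detected probes of the members, with bars of 1 SD of spot noise, filled symbols for the brightest probe of a gene and the triangle, drawn without a bar, for the *Socs2* probe that gives only a bound. Every probe of *Igf1* and *Socs2* measured on both arrays lies below 0, and the bound could take no other sign. The probes of *Ghr* lie on both sides, and no probe reaches the dashed lines at Z scores of -2 and 2.

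Among the carriers of IGF1, *Igfbp1* was lower and *Igfbp2* and *Igfals* were higher in *Drp1*LiKO cells by the scanner signals. *Igfals*, which encodes the acid-labile subunit, had a signal of 244 on the control and 361 on the *Drp1*LiKO array, which gave a log2 ratio of 0.38 ± 0.18. *Igfbp3*, the main carrier in blood, had signals of 1637 and 2217 and a log2 ratio of 0.25 ± 0.12. In liver, *Igfbp3* is known to be made mainly by non-parenchymal cells rather than hepatocytes.

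*Igfbp1*, an acute inhibitor of IGF1 that insulin represses in liver, had signals of 8527 and 6861, a log2 ratio of -0.50 ± 0.08, and 12.7% of all genes had a lower ratio. In the authors' normalized values the ratio of *Igfbp1* was -0.79 and that of *Igfals* 0.09, both on the same side of 0 as by the scanner signals. *Igfbp2*, a carrier that is high in the fetal liver, had signals of 2765 and 4145 and a log2 ratio of 0.40 ± 0.09. This was the highest ratio among the members, but in the authors' normalized values it was -0.49, so its direction is not settled. *Igfbp4*, an inhibitory binding protein of liver, had signals of 227 and 248 at its brightest probe, a log2 ratio of -0.06 ± 0.20. Its other probe, with signals of 153 and 170, gave -0.04 ± 0.27, and both were within the spot noise. In the authors' normalized values the brightest probe of *Igfbp4* was at -0.34.

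**Figure D4:**
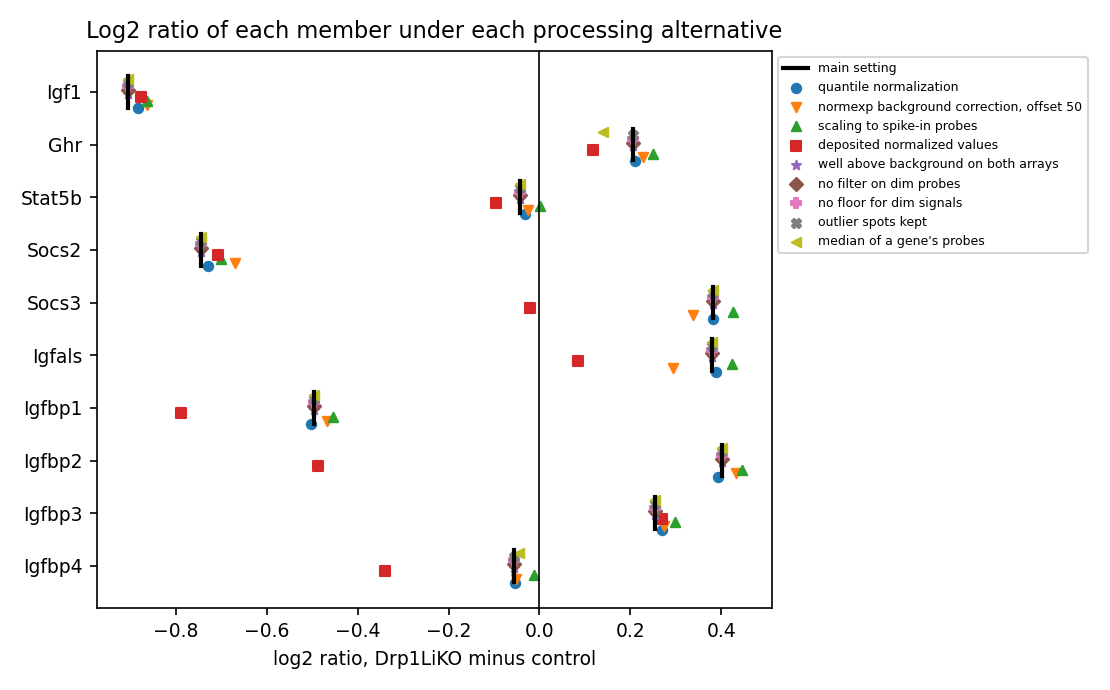
Log2 ratio (*Drp1*LiKO minus control, x axis) of each member by the reported processing (black bars) and under 9 alternatives (colored symbols). *Igf1* (-0.91 to -0.86) and *Socs2* (-0.74 to -0.67) stay below 0 under all 9, whereas *Igfbp2* and *Socs3* change sign in the authors' normalized values and *Stat5b* in the scaling to spike-in probes.

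Promoter sequences put these readings beside known regulatory letters. The RefSeq promoter table (GRCm38.p6, 250 bases before to 50 after each start) matched 9 of the 10 members with 14 promoters, and *Socs2* had no entry. The spacing TTCNNNGAA, where N is any base, reads the same on both strands and is the core that STAT5 and STAT3 dimers are known to bind. It was present in 8.30% of the 32851 promoters of the table and in promoters of 2 members, *Igfals* and *Socs3*. *Cish*, a STAT5 target outside the members, held it at 2 places. The letters CAAAACA, on either strand, begin the known insulin response element of *Igfbp1* and were present in 6.28% of all promoters and, among the members, in *Igfbp1*. A match describes letters only, and no binding was measured. The 3 promoters are shown with these letters in capitals, for a GH target that read higher, a GH target that read lower and an insulin target that read lower in *Drp1*LiKO cells.
*Igfals*, chr17:24877981-24878280, plus strand: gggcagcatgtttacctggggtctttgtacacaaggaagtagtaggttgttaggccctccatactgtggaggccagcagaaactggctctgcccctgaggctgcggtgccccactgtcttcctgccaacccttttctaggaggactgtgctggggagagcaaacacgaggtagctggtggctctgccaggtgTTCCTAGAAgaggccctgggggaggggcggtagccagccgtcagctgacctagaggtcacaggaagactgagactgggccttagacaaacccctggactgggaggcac
*Cish*, chr9:107296409-107296708, plus strand: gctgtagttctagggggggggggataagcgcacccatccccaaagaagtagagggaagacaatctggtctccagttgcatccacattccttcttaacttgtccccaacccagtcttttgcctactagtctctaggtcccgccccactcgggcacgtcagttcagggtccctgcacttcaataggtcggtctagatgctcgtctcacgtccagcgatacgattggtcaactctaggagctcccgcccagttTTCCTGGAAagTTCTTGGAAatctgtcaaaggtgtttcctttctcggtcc
*Igfbp1*, chr11:7197537-7197836, plus strand: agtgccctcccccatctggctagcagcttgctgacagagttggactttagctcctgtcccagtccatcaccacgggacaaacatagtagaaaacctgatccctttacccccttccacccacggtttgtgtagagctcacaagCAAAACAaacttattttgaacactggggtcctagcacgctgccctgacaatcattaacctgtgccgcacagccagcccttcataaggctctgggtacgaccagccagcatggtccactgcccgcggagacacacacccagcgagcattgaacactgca

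The rest of the GH receptor pathway was read by a list of signaling partners and inhibitors. Of its 16 genes, all 16 were detected, 5 had a ratio above 0 and 11 below 0, and their median log2 ratio was -0.13. The lowest was *Irs2*, an adaptor of the insulin and IGF1 receptors, with signals of 713 on the control and 575 on the *Drp1*LiKO array and a log2 ratio of -0.49 ± 0.16. Chosen for their place in the pathway after values were seen, *Jak2* had signals of 430 and 474 (log2 ratio -0.04 ± 0.18), *Stat5a* 4025 and 3561 (-0.36 ± 0.09) and *Cish* 1861 and 1531 (-0.46 ± 0.11). The feedback inhibitors *Cish* and *Socs2* were thus both lower, and *Jak2*, like *Stat5b*, was within its noise.

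Of 16 further IGF system genes, 11 were detected, and *Igf2*, *Insrr*, *Igfbp5*, *Igfbpl1* and *Stc1* were not well above background on either array. *Igfbp6*, a binding protein with preference for IGF2, was the lowest, with signals of 325 on the control and 65.6 on the *Drp1*LiKO array and a log2 ratio of -2.49 ± 0.29. *Igf2bp1*, an RNA-binding protein of fetal tissue, had signals of 137 and 35.2 and a log2 ratio of -2.14 ± 0.43. These 2 passed the Z score as lower. *Pappa2*, a protease that frees IGF1 from its binding proteins, passed it as higher, with a signal of 53.1 in *Drp1*LiKO cells and 4.17, not well above background, in control cells, which makes it at least 2.57-fold higher. This call was lost with normexp correction, in the authors' normalized values, within bins of similar signal and when only probes measured on both arrays were kept. *Igfbp7*, a protein of vessel walls and matrix, was the highest of the genes measured on both arrays, with signals of 2241 and 5032 and a log2 ratio of 0.98 ± 0.10. The list's median log2 ratio was 0.21, and -0.27 when dim genes were not filtered out.

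Liver genes that follow GH did not move as 1 group. Of 10 genes on the male side of the GH pattern, all were detected, with 6 above and 4 below 0 and a median log2 ratio of 0.23. Only *Cyp4a12a*, a fatty acid hydroxylase of male liver, passed the Z score, with signals of 520 and 1546 and a log2 ratio of 1.39 ± 0.13, and the lowest was *Mup3* at -0.22. With no floor for dim signals *Cyp4a12a* no longer passed, although its ratio was unchanged, because the score's mean and SD came out different. Of 10 genes that are higher under continuous or lost GH, 7 were not well above background on either array. The other 3 were the cytochrome P450 genes *Cyp2b9* (signals of 41.5 and 150; log2 ratio 1.68 ± 0.36), *Cyp2b10* (102 and 349; 1.59 ± 0.29) and *Cyp17a1* (3446 and 2893; -0.43 ± 0.10). A second probe of *Cyp2b10*, dim on the control array, gave a bound of 0.15. *Cyp2b9* and *Cyp2b10* passed the Z score, but not with no floor. Probes of the *Cyp4a12*, *Cyp2b* and *Mup* families can share signal between near-identical copies, which makes these readings uncertain.

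Genes that share regulators with *Igfbp1* and *Socs3* were read in the same way. Of 11 insulin and FOXO1 target genes, all were detected and their median log2 ratio was -0.22. *Pdk4*, a kinase that spares glucose in fasting (signals of 144 and 539; log2 ratio 1.72 ± 0.25), and *Ppargc1a*, a coactivator of fasting metabolism (133 and 489; 1.69 ± 0.28), passed the Z score as higher. Both calls were lost with no floor, and that of *Ppargc1a* also in the authors' normalized values. Of the 11, 5 had a ratio above 0 and 6 below 0, and *Igfbp1*, which insulin and FOXO1 also control, lay below 0.

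Of 16 interleukin-6 and STAT3 response genes, all were detected, 5 above and 11 below 0, with a median log2 ratio of -0.28. *Il6* itself, not well above background in control cells at a signal of 3.97, reached 69.7 in *Drp1*LiKO cells and was at least 3.37-fold higher. *Lcn2*, an acute-phase protein of injured liver, had signals of 7165 and 26508 and a log2 ratio of 1.70 ± 0.07. Both passed the Z score, *Lcn2* not with no floor and *Il6* not under the settings that also lost *Pappa2*. The acute-phase gene *Saa1* was the lowest, with signals of 110232 and 60854 and a log2 ratio of -1.04 ± 0.06. It did not pass by the reported processing. It passed as lower with normexp correction, in the authors' normalized values and under both other Z scores. *Socs3*, which STAT3 also induces, lay above 0 by the scanner signals, whereas most genes of this list lay below it. The 6 genes around FGF21, a hepatic hormone known to blunt GH signaling, had a median log2 ratio of -0.26, and none passed the Z score by the reported processing. *Fgf21* was the lowest of them (341 and 177; -1.13 ± 0.21) and its receptor gene *Fgfr1* the highest (5087 and 8371; 0.54 ± 0.08). *Fgf21* passed as lower with normexp correction, with probes measured on both arrays alone and with a Z score by median and median absolute deviation. Another receptor gene, *Fgfr2*, passed as lower in the authors' normalized values and with the median of a gene's probes.

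**Figure D5:**
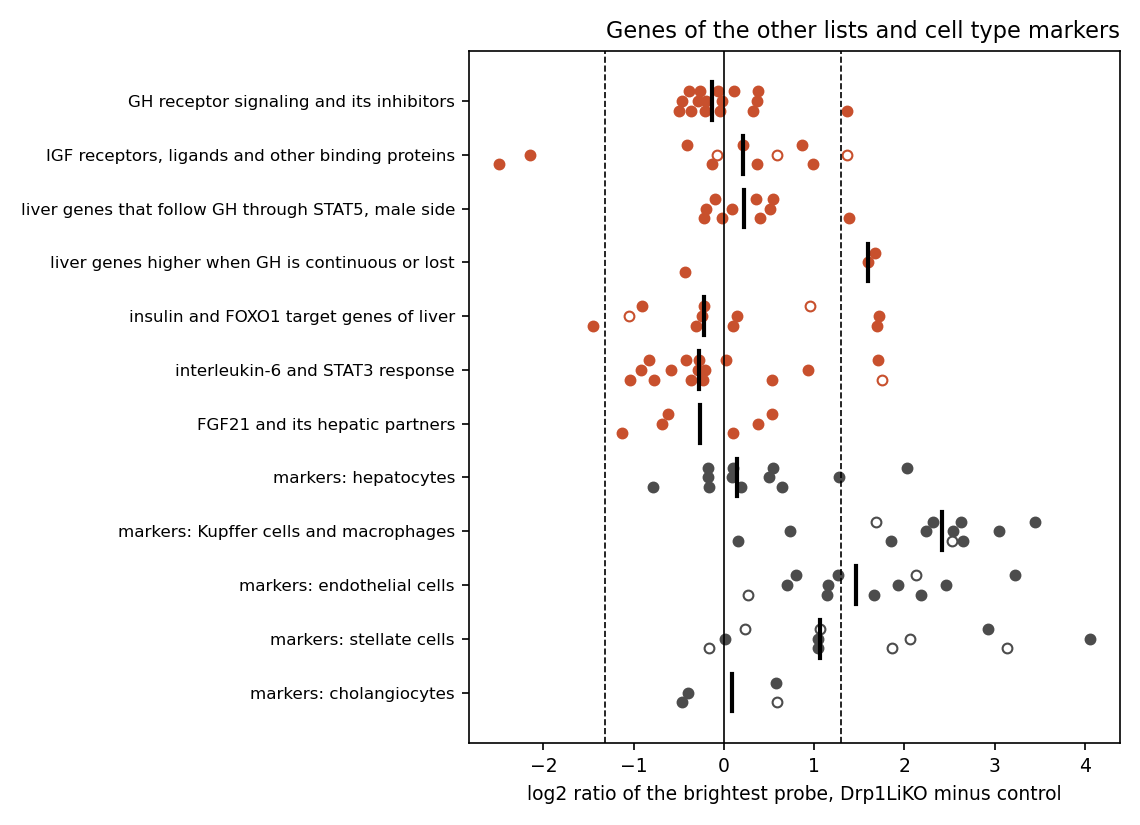
Log2 ratio (*Drp1*LiKO minus control, x axis) of the brightest probe of each detected gene of the other lists (orange) and of markers of liver cell types (gray), with open symbols for bounds, black bars at each list's median and dashed lines at Z scores of -2 and 2. The medians of the gene lists lie near 0 except for the 3 detected genes higher under continuous or lost GH, and those of macrophage, endothelial and stellate cell markers lie above 1.

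Markers of macrophages, endothelial cells and stellate cells were higher on the *Drp1*LiKO array, beside all of these readings, and those of cholangiocytes were not. The defining hepatocyte markers, *Alb* and *Ttr* among them, were present on both arrays (12 of 12 detected), with 8 above 0, 1 past the Z score (*Cyp3a11*), a median log2 ratio of 0.14 and a summed signal of 678189 on the control and 761685 on the *Drp1*LiKO array. Of 14 Kupffer cell and macrophage markers, 12 were detected and all 12 lay above 0, 10 past the Z score, with a median of 2.42 and a summed signal of 5506 and 21496, while *Timd4* and *Cd163* were not well above background on either array. Of 12 endothelial markers, 12 lay above 0 and 6 passed the Z score, with a summed signal of 4864 and 10637. Of 11 detected stellate cell markers, 10 lay above 0 and 5 passed, with a summed signal of 21968 and 30289, and *Lrat* was not well above background on either array. Of the 4 cholangiocyte markers detected, none passed, with a summed signal of 29379 and 24885. Some detected markers were well above background on the *Drp1*LiKO array only: 2 of macrophages, 2 of endothelial cells, 6 of stellate cells and 1 of cholangiocytes. They entered the counts through that array alone, which favors ratios above 0. Over the markers measured on both arrays, the median log2 ratios were 2.43, 1.46, 1.04 and -0.40, in that order.

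Several members are also expressed outside hepatocytes, such as *Igfbp3*, *Igfbp4*, *Socs3* and *Igf1*, which macrophages make as well. *Igf1* was lower while macrophage markers were higher, and *Igfbp3* and *Socs3* were higher together with them by the scanner signals. The same markers moved with *Igfbp7*, *Il6* and *Lcn2*, which other liver cells are known to express. The part of these cells in these values was not tested. In RNA from a whole culture, fewer cells of a type and less RNA per cell cannot be told apart.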

How the data were processed

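RNA of 1 control and 1 *Drp1*LiKO hepatocyte culture was labeled with Cy3 and hybridized to 60-mer Agilent mouse arrays, on 1 slide read in 1 scan. The authors deposited each array's spot intensity from Feature Extraction (10.7.1.1 in the file headers, 9.5.1.1 in the submitters' processing notes), already background-subtracted and detrended. A table of normalized intensities, deposited by the authors with no method given in the sources used here, served only as an alternative.

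Spots marked as outliers and controls were dropped, the log2 signals of a probe's spots averaged, and each array's 75th percentile subtracted. Of 56600 probes, 30275 (20165 gene names) were well above background on 1 array or both and were kept, and dim signals were raised to the lowest signal well above background on that array, so that such ratios are bounds. A gene was its brightest probe. The Z score threshold of 2 follows the study, with all kept probes as reference. Groups came from the labels. The number of arrays limits the precision, and no test was possible.

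The members and lists were chosen with earlier results of these data known. All members are named with every probe, and of each list the genes past the Z score and the highest and lowest measured on both arrays. Other names are marked as such. The values of some list genes are not reported here. All 152 gene names of members, lists and markers are symbols in the RefSeq table of GRCm38.p6. Alternatives were quantile normalization, normexp correction with an offset of 50, spike-in scaling, the deposited values, 2 other filters, no floor, outliers kept, the median of a gene's probes, 2 other Z scores, and calls at 1.5-fold and 2-fold. The steps were tested on simulated data with changes beyond the call limit, which says nothing of changes as small as those of the members. R 4.3.3 (limma 3.58.1) and Python 3.11.15 (pandas 2.3.3, numpy 2.4.6, matplotlib 3.10.9) were used.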

Additional observations from a re-analysis of the deposited data

How the results depend on the processing

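No paired analysis was possible because each genotype had 1 array and the labels give no shared replicate numbers, and no replicate could be left out. The count of members past the threshold as lower, 0 by the Z score of 2, became 1 with normexp correction, 1 with a Z score by median and median absolute deviation (which called 7.16% of all genes lower) and 1 with a Z score taken within bins of similar signal, *Igf1* each time, and 2 (*Igf1* and *Socs2*) at 1.5-fold. The count as higher was 0 under every alternative run. In the deposited normalized values, the members' median log2 ratio was -0.22 in place of 0.08, *Igfbp2* was at -0.49, *Socs3* at -0.02 and *Igfbp1* at -0.79, the median of the GH receptor signaling list was 0.0165 in place of -0.13 and that of the male-side list 0.0930 in place of 0.23. In that table the control column kept the order of the control array (rank correlation 1 across 30275 probes, which are not replicates), whereas the *Drp1*LiKO column did not fully (0.988), and the cause was not tested. With normexp correction the medians were 0.0721 for the male-side list and 0.87 for the 3 genes higher under continuous or lost GH (1.59 by the reported processing). Without a filter, which adds dim genes, they were -0.27 for the IGF list (0.21) and -0.47 for the genes higher under continuous or lost GH, and the median of all genes moved from -0.05 to -0.47. A probe dim on both arrays takes the value -0.47 from the floors and the scaling alone, so the medians of -0.47 measure no expression. With the median of a gene's probes the list medians were 0.87 for the genes under continuous or lost GH and 0.0181 for the insulin and FOXO1 list (-0.22). Among the list genes named as past the Z score, *Igfbp6* and *Igf2bp1* were called under every alternative run. With no floor for dim signals the calls of *Cyp4a12a*, *Cyp2b9*, *Cyp2b10*, *Pdk4*, *Ppargc1a* and *Lcn2* were lost. Their brightest probes were measured on both arrays, so the floor does not enter their ratios. What changed was the mean and SD of all ratios, which set the score. Those of *Pappa2* and *Il6*, both bounds, were lost with normexp correction, in the deposited values, within bins of similar signal and with probes measured on both arrays alone. That of *Ppargc1a* was also lost in the deposited values, that of *Cyp2b10* with the median of its probes and that of *Cyp2b9* within bins of similar signal. Calls were also gained under some alternatives, such as those of *Saa1*, *Fgf21* and *Fgfr2* as lower, given with their settings above. Scaling to 7 spike-in probes put *Stat5b* at 0.001. Besides *Stat5b* there, and *Igfbp2* and *Socs3* in the deposited values, no member changed sign under the 9 alternatives that give a ratio. The dimmest readings, near 18.2 in control and 15.0 in *Drp1*LiKO cells, give bounds only.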
